A study of Homo sapiens with 12 samples.

Results

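Lysosomes are the acidic compartments in which cells break down proteins, lipids, glycans and engulfed material. Their acidity is made by the V-ATPase, a rotary proton pump with a V1 sector in the cytosol that hydrolyses ATP and a V0 sector in the membrane that carries protons. Acid hydrolases such as the cathepsins do the digestion, and membrane proteins such as LAMP1, CD63 and CD68 line the compartment. The transcription factors TFEB and TFE3 bind CACGTG-type sites, among them the longer site called CLEAR, and switch on many lysosomal genes together; monocytes and macrophages are rich in lysosomes. The 45 genes described here were the 22 RefSeq coding genes whose symbol starts with ATP6V0 or ATP6V1 and 23 listed lysosome genes, out of 20037 coding genes placed on the genome. Each gene was represented by the H3K9ac region with the highest mean over the libraries within 1 kb of either annotated gene end, and 42 of the 45 had one (19 V-ATPase and 23 listed genes), which is 93.3% against 61.6% of all coding genes.

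The cells were MOLM-13, an established human line of acute myeloid leukaemia with the KMT2A-MLLT3 fusion gene and FLT3-ITD (a duplicated stretch in the receptor FLT3), grown in RPMI with FBS and antibiotics. One group received WM-1119, an inhibitor of the histone acetyltransferase KAT6A, at 4 µM for 4 days, and the other received DMSO, the solvent, for a time the labels do not state. Chromatin was immunoprecipitated for acetylation of histone H3 at lysine 9 (H3K9ac), a mark of active promoters, and sequenced, with 3 WM-1119 and 3 DMSO libraries; 6 input libraries were not analysed here. The labels do not say whether replicates came from separate cultures, so p-values measure only the spread between these libraries, which may be technical, and all of them come from 1 cell line.

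The deposited values were CPM, the reads in a region scaled so that each library's 47648 regions sum to 1000000. Reads in regions came to 4542322, 9996190 and 12705349 in WM-1119 replicates 1 to 3, against 719329, 1298443 and 7481097 in DMSO replicates 1 to 3, so that 3 reads were worth 0.236 to 4.17 CPM. DMSO replicates 1 and 2 stood apart from the other libraries. Regions with a mean below the median held 3.35%, 2.70% and 2.19% of the CPM in WM-1119 replicates 1 to 3, against 8.95%, 7.19% and 2.35% in DMSO replicates 1 to 3. Of the markers of myeloid leukaemia cells, 8 of 8 had a region, with means from 3.67 CPM at CD33 and 9.57 CPM at MPO to 492.5 CPM at MYB. Among markers of lymphoid, erythroid, fibroblast and epithelial cells, 9 had a region, with means of 1.25 to 14.7 CPM, and CD2, HBA1, HBB and COL1A2 had none. The 4 lymphoid markers summed to 14.5 to 19.2 CPM with WM-1119, against 17.4 to 41.7 CPM with DMSO, and their part in the results was not tested.

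The genes without a region at either end were ATP6V0A4, ATP6V0D2 and ATP6V1G3, which encode subunit forms known from kidney intercalated cells or osteoclasts. The other 42 genes had 42 distinct regions, of which 14 also stood at an end of another coding gene and cannot be assigned to 1 gene of the pair. Their median width was 2168 bp, against 1982 bp for all gene-end regions, and their median level was 63.3 CPM, against 52.8 CPM. In 27 of 42 genes the level was above the gene-end median. By orientation in the RefSeq promoter table, 28 regions lay near the annotated start, 2 near the end (ATP6V1B1 and MCOLN1) and 1 near both (CD68). For the remaining 11 no strand was given.

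The promoter sequences are shown because strings of the kind that TFEB and TFE3 read lie inside some of these acetylated regions. RefSeq promoter windows (250 bases before to 50 after the start, GRCh38.p14) were found for 33 of the 45 genes, and 12 genes had no entry. The string CACGTG, which reads the same on both strands, occurred in 10 of 33 genes (30.3%), against 10.9% of 15843 coding genes; per window the shares were 21.2% and 8.34%. The longer string TCACGTGA, which contains it, occurred in 6 genes (18.2%, against 1.65%), and the CLEAR palindrome of 10 bases, TCACGTGA with a G before it and a C after it, in 3 genes (9.09%, against 0.638%). The longest run belonged to LAMP1, with 6 copies at positions -192, -176, -159, -142, -28 and -1 from the start. A match is a string in a window and says nothing of binding in these cells. As CLEAR is known from lysosomal genes, its share among these genes is no independent result, and no difference in shares was tested. Capitals mark CACGTG in the stretches below, which are written 5′ to 3′ on the gene's strand from chr9:114587691-114587750 (ATP6V1G1, plus strand), chr17:80101485-80101575 (GAA, plus), chr19:7522563-7522633 (MCOLN1, plus), chr20:45891273-45891335 (CTSA, plus), chr16:67481177-67481236 (ATP6V0D1, minus), chr1:43974883-43974946 (ATP6V0B, plus) and chr13:113297027-113297248 (LAMP1, plus) of hg38. The first 3 carry the full 10-base site.
ATP6V1G1: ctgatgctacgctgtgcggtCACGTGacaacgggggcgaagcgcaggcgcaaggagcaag
GAA: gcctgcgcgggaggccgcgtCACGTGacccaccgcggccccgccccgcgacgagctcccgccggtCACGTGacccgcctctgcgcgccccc
MCOLN1: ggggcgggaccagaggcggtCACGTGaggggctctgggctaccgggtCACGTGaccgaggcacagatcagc
CTSA: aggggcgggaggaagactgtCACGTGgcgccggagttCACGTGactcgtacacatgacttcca
ATP6V0D1: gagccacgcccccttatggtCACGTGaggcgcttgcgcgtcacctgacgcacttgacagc
ATP6V0B: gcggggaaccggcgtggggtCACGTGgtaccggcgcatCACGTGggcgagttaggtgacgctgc
LAMP1: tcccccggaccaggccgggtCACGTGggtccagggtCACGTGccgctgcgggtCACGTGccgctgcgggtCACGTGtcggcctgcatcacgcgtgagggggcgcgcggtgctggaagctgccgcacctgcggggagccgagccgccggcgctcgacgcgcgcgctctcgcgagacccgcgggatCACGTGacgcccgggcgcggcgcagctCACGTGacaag
All copies shown lay inside the region that stood for the gene, except those of MCOLN1, which lay in a second region over its start described further on.

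No region of the 42 genes passed the threshold of an adjusted p of 0.05 in limma with the Benjamini-Hochberg adjustment over 44763 tested regions, in either direction. This left 0 genes higher and 0 lower, beside 0% and 0.0603% of all tested regions, with limma adjusted p-values of 0.31 to 0.959. At an unadjusted p under 0.05, 9 genes (21.4%) were higher with WM-1119 and 0 lower, beside 2.58% and 10.8% of all tested regions, and edgeR on 5 libraries also called 0 in each direction. The log2 change in CPM + 1 was above 0 in 35 of 42 genes, with a median of 0.16, quartiles of 0.04 and 0.30 and a range of -0.76 to 0.52. The 3 WM-1119 libraries all lay above the 3 DMSO libraries in 12 genes (28.6%) and all below in 2 genes (4.76%). The same held for 3.76% and 13.2% of all tested regions, where the median log2 change was -0.47. For gene-end regions of like mean level standing for other genes (the 200 nearest of each gene, pooled to 8400 entries from 5660 distinct regions, so that a region near several genes counts more than once), 14.8% of entries lay wholly above and 2.71% wholly below, 11.0% had an unadjusted p under 0.05 upward and 1.50% downward, 0% were higher and 0.0119% lower at the adjusted threshold, and the median log2 change was 0.14. The median of the lysosome and V-ATPase genes thus lay within 0.02 of that of equally strong gene ends, and no difference between the sets was tested.

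**Figure D1:**
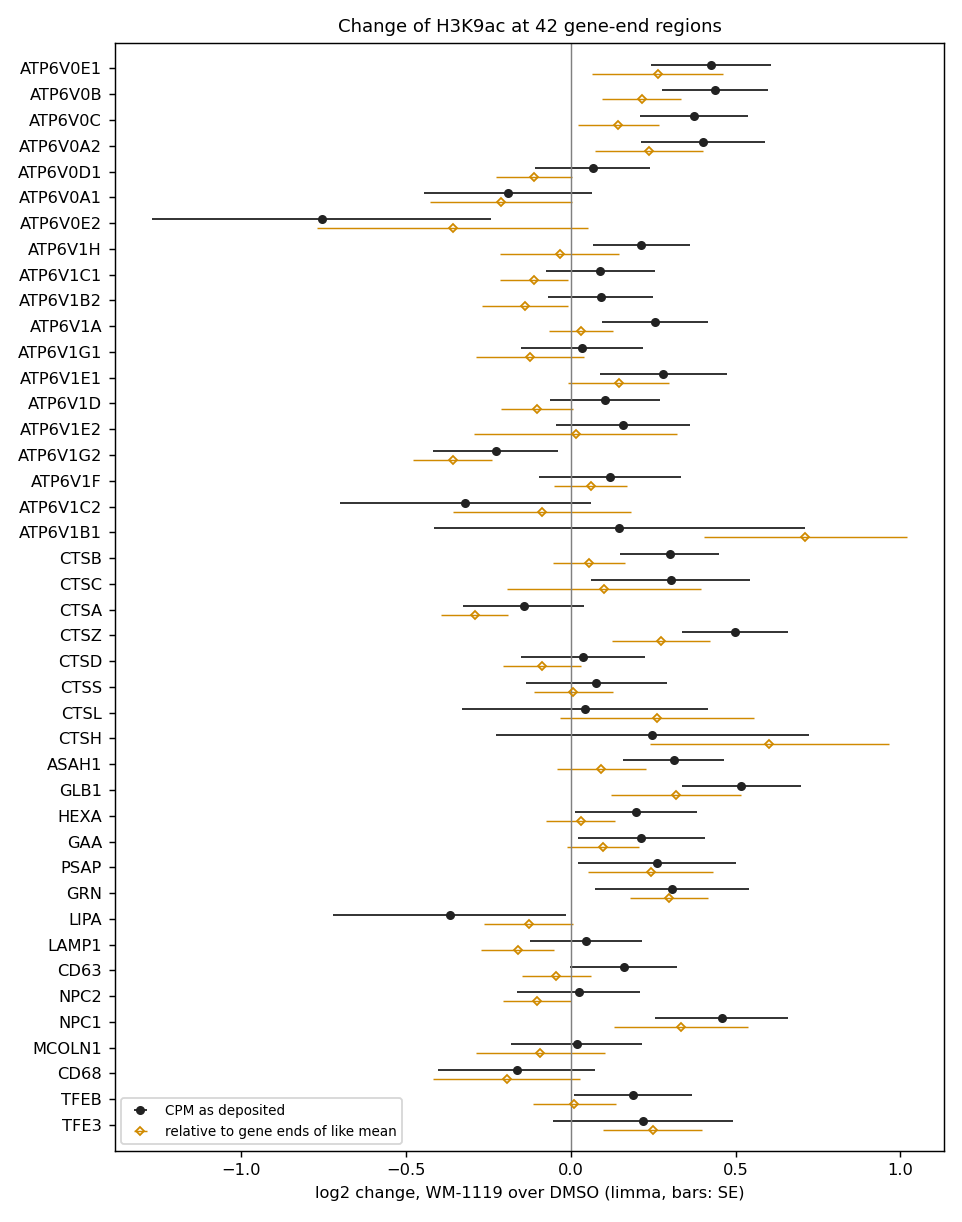
Log2 change in CPM + 1, WM-1119 over DMSO, at the region of each of the 42 genes, grouped by role, with the standard error of limma as bars. Filled points (CPM as deposited) lie above 0 in 35 of 42 genes. Open diamonds (change relative to gene ends of like mean level) lie above 0 in 24 of 42. None passed the adjusted threshold on either scale.

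The membrane sector V0 held the most genes with separated groups. In 5 of 7 V0 genes every WM-1119 library was above every DMSO library, beside 3.76% of all tested regions. Among gene ends like the 42 genes in level the share was 14.8%. The median log2 change of the 7 V0 genes was 0.37, and no difference between the sets was tested. ATP6V0B, a proteolipid of the rotor ring, had 143, 145 and 142 CPM in WM-1119 replicates 1 to 3, against 97.3, 96.3 and 126 CPM in DMSO replicates 1 to 3, at chr1:43974086-43976992, a region it shares with DPH2. All 3 WM-1119 values were above the DMSO values, of which replicate 3 was the highest. The log2 change was 0.44 ± 0.16 (SE, adjusted p of 0.336 by limma). ATP6V0C, the main proteolipid of the ring, had 143, 131 and 139 CPM with WM-1119, against 91.8, 100.9 and 128 CPM with DMSO, at chr16:2513331-2516176. Here too the groups did not overlap, with DMSO replicate 3 closest to the treated libraries, and the log2 change was 0.37 ± 0.16 (SE, adjusted p of 0.354 by limma). ATP6V0E1, the small e subunit, had 102, 78.3 and 74.3 CPM with WM-1119, against 61.2, 57.8 and 68.7 CPM with DMSO, at chr5:172983367-172985040, with replicate 1 the highest WM-1119 library. Its log2 change was 0.42 ± 0.18 (SE, adjusted p of 0.353 by limma).

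ATP6V0A2, the a-subunit form known from the Golgi, and ATP6V0D1, the d subunit that couples the sectors, were the other V0 genes with separated groups. ATP6V0A2 averaged 73.0 ± 7.37 CPM with WM-1119, against 55.5 ± 10.0 CPM with DMSO (SD, n = 3 each). For ATP6V0D1 the separation was small, with 79.4 ± 2.50 CPM with WM-1119 and 75.8 ± 0.864 CPM with DMSO (SD, n = 3 each). Against DMSO replicate 3 alone the log2 change was 0.19 for ATP6V0B, 0.10 for ATP6V0C and 0.29 for ATP6V0E1. It was 0.18 for ATP6V0A2 and 0.05 for ATP6V0D1. ATP6V0E2, the second form of the e subunit, was the V0 gene with the lowest level. It had 4.62, 2.40 and 4.17 CPM with WM-1119, against 5.56, 13.9 and 3.88 CPM with DMSO, at chr7:149873203-149873936. The groups overlapped, DMSO replicate 2 was far above the rest, and 3 reads in the shallowest library were already worth 4.17 CPM, a limit that covers counting error only. The log2 change of ATP6V0E2 was -0.76 ± 0.51 (SE, adjusted p of 0.436 by limma) and turned to 0.02 when libraries were centred on their medians. ATP6V0A1, another a-subunit form, had a log2 change of -0.19. The 1 copy of CACGTG in the ATP6V0E2 promoter window lay outside every region of the table.

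**Figure D2:**
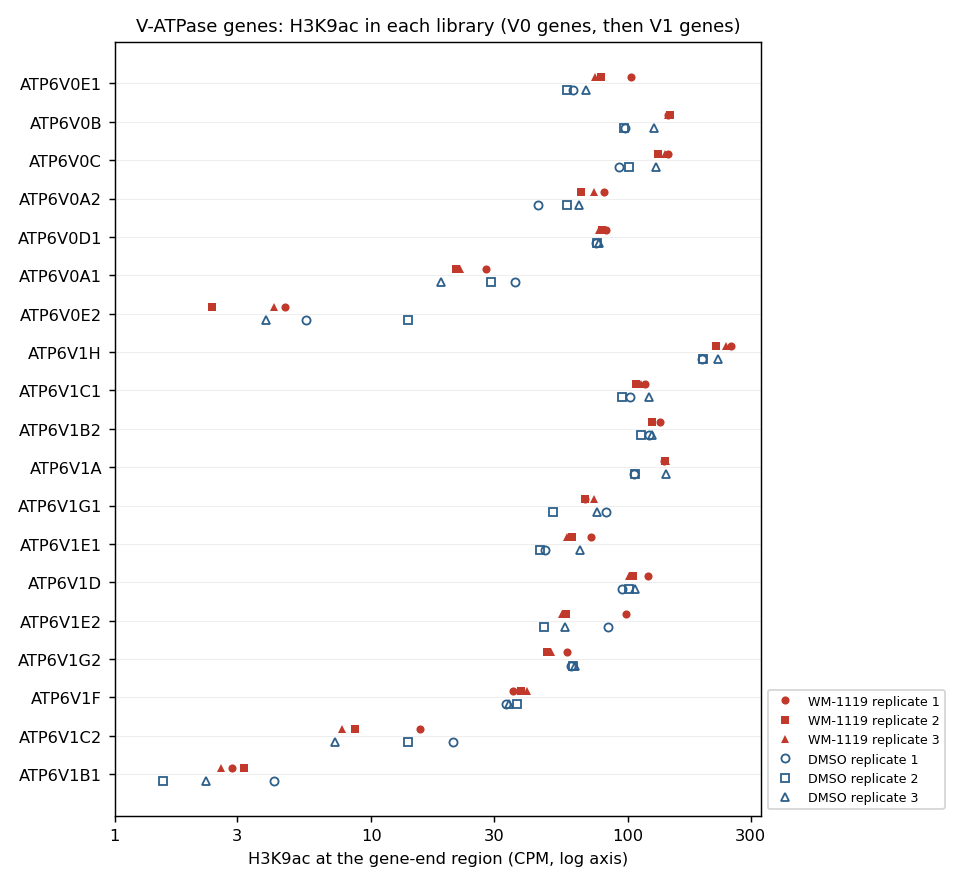
H3K9ac level in CPM (horizontal log axis) at the region of each V-ATPase gene, 1 point per library. WM-1119 libraries are filled symbols and DMSO libraries open symbols. ATP6V0B and ATP6V0C show separated groups, while ATP6V0E2 and ATP6V1B1 lie below 15 CPM in every library.

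In the cytosolic sector V1, 10 of 12 genes had a log2 change above 0, with a median of 0.11, and none had an unadjusted p under 0.05. ATP6V1A, the catalytic A subunit, had 138, 139 and 140.4 CPM with WM-1119, against 106, 106 and 140.2 CPM with DMSO, in a region at chr3:113744339-113748326 shared with NAA50. The WM-1119 libraries and DMSO replicate 3 were alike, and DMSO replicates 1 and 2 were lower. The log2 change was 0.26 ± 0.16 (SE, adjusted p of 0.414 by limma), and it was -0.01 without those 2 DMSO libraries. ATP6V1B2, the B subunit of most tissues, had 133, 124 and 124 CPM with WM-1119, against 121, 112 and 124 CPM with DMSO, at chr8:20196685-20199314. Its groups did not overlap, but the gap between the nearest libraries was 0.24 CPM, the smallest among the 12 genes with WM-1119 libraries wholly above. The log2 change of 0.09 ± 0.16 (SE, adjusted p of 0.728 by limma) turned to -0.11 after quantile normalization and to -0.14 after centring on gene ends of like level.

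ATP6V1H, a regulatory subunit of V1, had the highest level of the V1 genes. It had 251, 221 and 241 CPM with WM-1119, against 193, 196 and 225 CPM with DMSO, at chr8:53841497-53844003. The WM-1119 libraries were mostly higher, but the groups overlapped at DMSO replicate 3; the log2 change was 0.21 ± 0.15 (SE, adjusted p of 0.436 by limma), and it was -0.0044 after quantile normalization and -0.03 after centring on gene ends of like level. ATP6V1G2, a G-subunit form known from neurons, was the V1 gene with the opposite separation. It had 57.7, 48.4 and 49.9 CPM with WM-1119, against 59.8, 60.8 and 62.0 CPM with DMSO, at chr6:31546975-31549275, in a region shared with NFKBIL1. All WM-1119 values were below all DMSO values, with a log2 change of -0.23 ± 0.19 (SE, adjusted p of 0.495 by limma) that turned to 0.54 with median centring and 0.21 in edgeR. The 6 V1 genes not described singly (ATP6V1C1, ATP6V1D, ATP6V1E1, ATP6V1E2, ATP6V1F and ATP6V1G1) had overlapping groups and log2 changes of 0.03 (ATP6V1G1) to 0.28 (ATP6V1E1).

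Subunits with several gene copies differed in level per kb of region, in means over the 6 libraries. ATP6V1B2 had 46.7 CPM per kb, against 6.68 CPM per kb at the far end of ATP6V1B1, the kidney form of the B subunit. ATP6V1C1, the widely used C subunit, had 51.7 CPM per kb, against 11.8 CPM per kb for ATP6V1C2. ATP6V0E1 had 44.0 CPM per kb, against 7.83 CPM per kb for ATP6V0E2. ATP6V0A2 had 28.4 CPM per kb, against 12.5 CPM per kb for ATP6V0A1, while the G forms ATP6V1G1 (31.2 CPM per kb) and ATP6V1G2 (24.5 CPM per kb) and the E forms ATP6V1E1 (30.7 CPM per kb) and ATP6V1E2 (25.4 CPM per kb) lay closer together. The regions of ATP6V1G2, ATP6V1E1 and ATP6V1E2 also stand at other genes, and the a, B and C comparisons were made after the values were seen. ATP6V1B2 and ATP6V1C1 lie on chromosome 8, of which MOLM-13 is known to carry an extra copy, and ATP6V1B1 and ATP6V1C2 on chromosome 2. The median of gene-end regions was 52.6 CPM per kb on chromosome 8, against 25.3 CPM per kb on the other chromosomes. The part of copy number in the B and C comparisons was not tested.

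The tissue-restricted forms with a region of their own were weak in all libraries. ATP6V1B1 had 2.86, 3.201 and 2.60 CPM with WM-1119, against 4.17, 1.54 and 2.27 CPM with DMSO, in a region of 415 bp at its far end (chr2:70965013-70965427). The groups overlapped, and 4.17 CPM in DMSO replicate 1 was 3 reads. The log2 change was 0.15 ± 0.56 (SE, adjusted p of 0.877 by limma), and it ran from -0.08 to 0.43 when single libraries were left out. ATP6V1C2 had 15.4, 8.60 and 7.71 CPM with WM-1119, against 20.9, 13.9 and 7.22 CPM with DMSO, at chr2:10721367-10722402. Both groups spanned a wide range and overlapped; the log2 change was -0.32 ± 0.38 (SE, adjusted p of 0.613 by limma), with the opposite sign after median centring (0.45), after quantile normalization (0.12) and in edgeR (0.32).

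Among the 8 cathepsins, the lysosomal proteases, 7 had a log2 change above 0, with a median of 0.16. CTSZ, the carboxypeptidase cathepsin Z, had the smallest p of all 42 genes. It had 135, 150.2 and 142 CPM with WM-1119, against 93.1, 97.8 and 111 CPM with DMSO, at chr20:59004408-59008415. Every WM-1119 library was well above every DMSO library, and the log2 change was 0.50 ± 0.16 (SE, adjusted p of 0.310 by limma). With the replicate number as a block CTSZ passed the threshold (0.50 ± 0.14 SE, adjusted p by limma 0.0490), alone among the 42 genes (2.38%, against 1.13% of gene ends of like level). Against DMSO replicate 3 alone its log2 change was 0.36.

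CTSC, the dipeptidyl peptidase that activates granule serine proteases, had a wide spread within both groups. It had 92.2, 121 and 128 CPM with WM-1119, against 55.6, 100.9 and 134 CPM with DMSO. In both groups replicate 1 was the lowest and replicate 3 the highest. The log2 change was 0.30 ± 0.24 (SE, adjusted p of 0.489 by limma). It was -0.05 without DMSO replicate 1 and -0.25 against DMSO replicate 3 alone. The elastin-cleaving CTSS and the endopeptidase CTSL had overlapping groups and log2 changes of 0.08 and 0.04.

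CTSB, cathepsin B, had the highest level of the cathepsins, with 234, 202 and 210.5 CPM with WM-1119, against 164, 160.2 and 202 CPM with DMSO, at chr8:11866827-11868873. WM-1119 replicate 2 and DMSO replicate 3 were nearly equal, so that the groups just overlapped; the log2 change was 0.30 ± 0.15 (SE, adjusted p of 0.373 by limma). CTSD, the aspartic protease cathepsin D, had 63.2, 60.02 and 57.5 CPM with WM-1119, against 63.9, 50.1 and 63.0 CPM with DMSO, at chr11:1762287-1764692. The groups overlapped fully, and the log2 change of 0.04 ± 0.19 (SE, adjusted p of 0.909 by limma) was -0.08 after quantile normalization and -0.09 after centring on gene ends of like level. CTSH, an aminopeptidase, was the weakest cathepsin, with 9.91, 6.70 and 5.12 CPM with WM-1119, against 4.17, 9.24 and 4.81 CPM with DMSO, at chr15:78944506-78945368. No order of the groups could be read from these values (log2 change 0.25 ± 0.47 SE, adjusted p by limma 0.752). CTSA, which protects GLB1 in a complex, was the cathepsin with WM-1119 libraries wholly below, at 59.7 ± 2.92 CPM with WM-1119 and 66.0 ± 2.28 CPM with DMSO (SD, n = 3 each), in a region shared with SPATA25 and NEURL2.

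Of the 7 other hydrolases and their activators, 6 had a log2 change above 0, with a median of 0.26. In 3 of the 7 the WM-1119 libraries lay wholly above, beside 3.76% of all tested regions and 14.8% of gene ends like the 42 genes in level. GLB1, the lysosomal beta-galactosidase, had the largest log2 change of the 42 genes. It had 90.7, 95.5 and 99.5 CPM with WM-1119, against 55.6, 58.5 and 89.0 CPM with DMSO, in a region at chr3:33095822-33097697 shared with TMPPE. The groups were separated by the small gap between WM-1119 replicate 1 and DMSO replicate 3. The log2 change was 0.52 ± 0.18 (SE, adjusted p of 0.321 by limma), and it was 0.10 against DMSO replicate 3 alone. GAA, which degrades glycogen, and HEXA, which degrades gangliosides, had overlapping groups and log2 changes of 0.21 and 0.20. ASAH1, acid ceramidase, had the highest level of this set, with 184, 164 and 172 CPM with WM-1119, against 149, 129 and 141 CPM with DMSO, at chr8:18082707-18085669. Its groups were separate, and the log2 change of 0.31 ± 0.15 (SE, adjusted p of 0.369 by limma) was 0.30 against DMSO replicate 3 alone.

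The precursors of smaller lysosomal proteins lay lower. GRN, the progranulin precursor, had 34.1, 30.01 and 33.2 CPM with WM-1119, against 25.02, 27.0 and 26.1 CPM with DMSO, at chr17:44344869-44346473. These narrow groups did not overlap, and the log2 change was 0.31 ± 0.23 (SE, adjusted p of 0.468 by limma). PSAP, the precursor of the saposins that activate sphingolipid hydrolases, had 39.6, 24.9 and 29.4 CPM with WM-1119, against 25.02, 26.2 and 25.3 CPM with DMSO, at chr10:71850595-71851828. WM-1119 replicate 1 was high and replicate 2 was the lowest of all 6, and the log2 change was 0.26 ± 0.24 (SE, adjusted p of 0.528 by limma). LIPA, lysosomal acid lipase, had 16.1, 9.10 and 8.97 CPM with WM-1119, against 19.5, 14.6 and 10.6 CPM with DMSO, in a region at chr10:89414184-89415422 shared with IFIT5. The DMSO libraries lay mostly above, with overlap; the log2 change of -0.37 ± 0.35 (SE, adjusted p of 0.544 by limma) was above 0 after median centring (0.40), after quantile normalization (0.10) and in edgeR (0.21). A second region inside LIPA, at chr10:89250872-89252208, was stronger, with 18.3, 20.1 and 19.6 CPM with WM-1119 and 23.6, 23.1 and 17.9 CPM with DMSO. The span used for LIPA was chr10:89213572-89414679, and the region at its annotated start may belong to IFIT5 instead. Which region marks the promoter of LIPA was not tested.

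**Figure D3:**
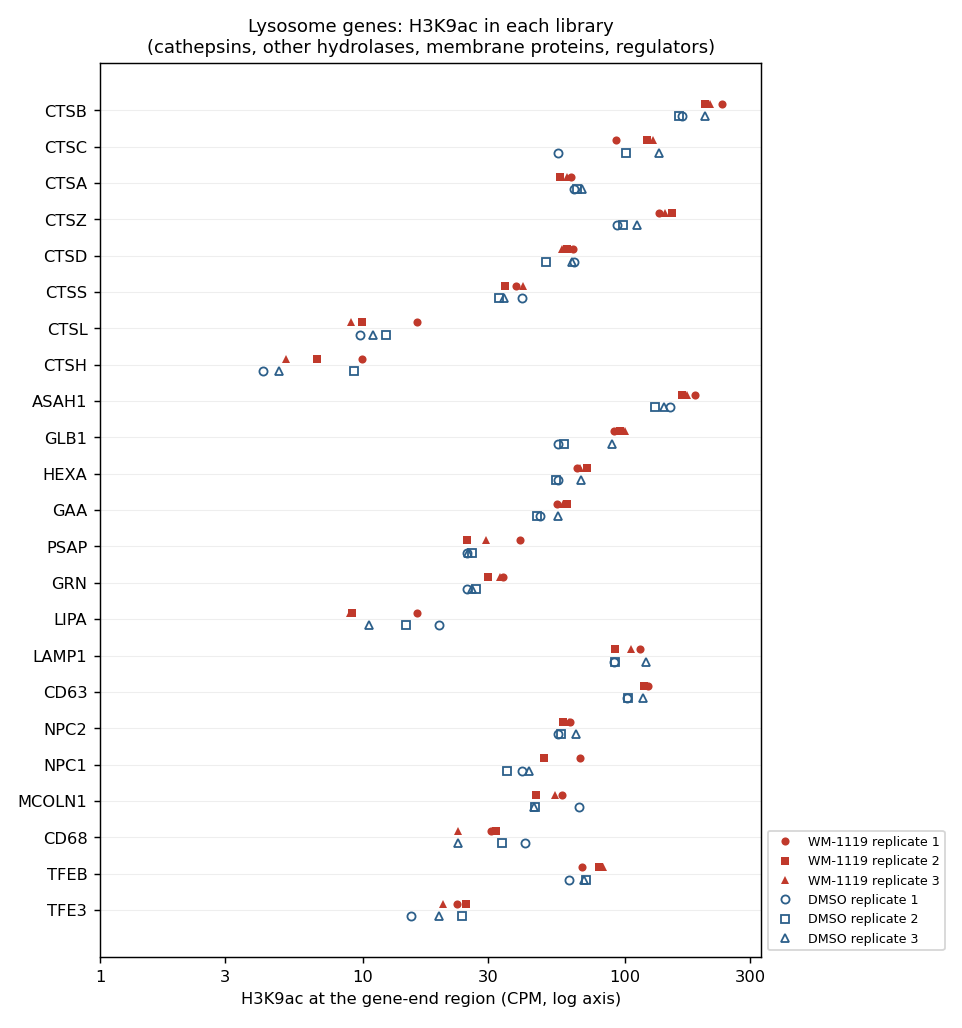
H3K9ac level in CPM (horizontal log axis) at the region of each of the 23 listed lysosome genes, 1 point per library. WM-1119 libraries are filled symbols and DMSO libraries open symbols. CTSZ, ASAH1, GLB1, GRN, NPC1 and CD63 show WM-1119 libraries above all DMSO libraries.

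The 6 membrane and transport genes had a median log2 change of 0.03; NPC2, the soluble partner of NPC1, had 0.02 with overlapping groups. NPC1, which exports cholesterol from the lysosome, had 67.4, 49.2 and 49.0 CPM with WM-1119, against 40.3, 35.4 and 43.0 CPM with DMSO, at chr18:23585354-23587307. All WM-1119 libraries were above the DMSO libraries, replicate 1 most, and the log2 change was 0.46 ± 0.20 (SE, adjusted p of 0.354 by limma). CD63, a tetraspanin of late endosomes and lysosomes, had 122.6, 118 and 118 CPM with WM-1119, against 101.5, 102 and 117 CPM with DMSO, at chr12:55727161-55730991. The groups were separate by under 1 CPM, and the log2 change of 0.16 ± 0.16 (SE, adjusted p of 0.559 by limma) was -0.04 both after quantile normalization and after centring on gene ends of like level.

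LAMP1, the major glycoprotein of the lysosomal membrane and the gene with 6 CACGTG copies above, had 114, 91.7 and 105 CPM with WM-1119, against 90.4, 91.6 and 120.4 CPM with DMSO, at chr13:113296518-113298795. The highest value was DMSO replicate 3, and the log2 change of 0.05 ± 0.17 (SE, adjusted p of 0.871 by limma) was -0.13 after quantile normalization and -0.16 after centring on gene ends of like level. CD68, a macrophage glycoprotein of the LAMP family, had 30.8, 32.3 and 22.98 CPM with WM-1119, against 41.7, 33.9 and 22.99 CPM with DMSO, at chr17:7578890-7581355. Replicate 3 was the lowest library of both groups, and the log2 change of -0.16 ± 0.24 (SE, adjusted p of 0.674 by limma) was above 0 after median centring (0.61) and in edgeR (0.21).

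MCOLN1, the lysosomal calcium channel, was represented by the stronger region at its far end, shared with PNPLA6, at chr19:7534119-7536628. It had 57.7, 45.6 and 54.0 CPM with WM-1119, against 66.7, 45.4 and 45.0 CPM with DMSO there. The groups overlapped, with a log2 change of 0.02 ± 0.20 (SE, adjusted p of 0.959 by limma) that was -0.10 after quantile normalization and -0.09 after centring on gene ends of like level. Over its start, where both CACGTG copies printed above lie, the region chr19:7521921-7523762 had 46.0, 35.2 and 36.9 CPM with WM-1119, against 44.5, 47.7 and 38.6 CPM with DMSO. There the WM-1119 libraries lay mostly lower, with overlap (log2 change -0.15 ± 0.21 SE, adjusted p by limma 0.664).

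The regulators were both measured. TFEB had 68.7, 79.4 and 82.2 CPM with WM-1119, against 61.2, 70.9 and 69.5 CPM with DMSO, in a region at chr6:41733088-41735870 shared with PGC. WM-1119 replicate 1 lay among the DMSO values and the others above them, and the log2 change was 0.19 ± 0.18 (SE, adjusted p of 0.539 by limma). TFE3 had 22.9, 24.8 and 20.2 CPM with WM-1119, against 15.3, 23.9 and 19.5 CPM with DMSO, at chrX:49041730-49043500. Those groups overlapped, with a log2 change of 0.22 ± 0.27 (SE, adjusted p of 0.628 by limma). Among genes with a promoter entry and a region, the 10 with CACGTG had a median log2 change of 0.04 and the 21 without it one of 0.19, a description with no test. The 10 include ATP6V0E2 and MCOLN1, whose copies lie outside the region that stood for the gene.

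Median changes by strength of the region were set beside those of other gene ends. At a mean of 100 CPM or more the 13 lysosome and V-ATPase genes had a median log2 change of 0.26, against 0.24 for all gene-end regions of that level. At 50 to 100 CPM the medians were 0.16 for 15 of these genes and 0.17 for gene ends, and at 20 to 50 CPM 0.17 for 8 genes and 0.08 for gene ends. At 10 to 20 CPM they were -0.32 for 3 genes and -0.16 for gene ends, and at 5 to 10 CPM -0.25 for 2 genes and -0.33 for gene ends. The 1 gene at 1 to 5 CPM, ATP6V1B1, had 0.15, against -0.46 for gene ends. The bins under 20 CPM hold few of these genes, so their medians rest on single genes.

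**Figure D4:**
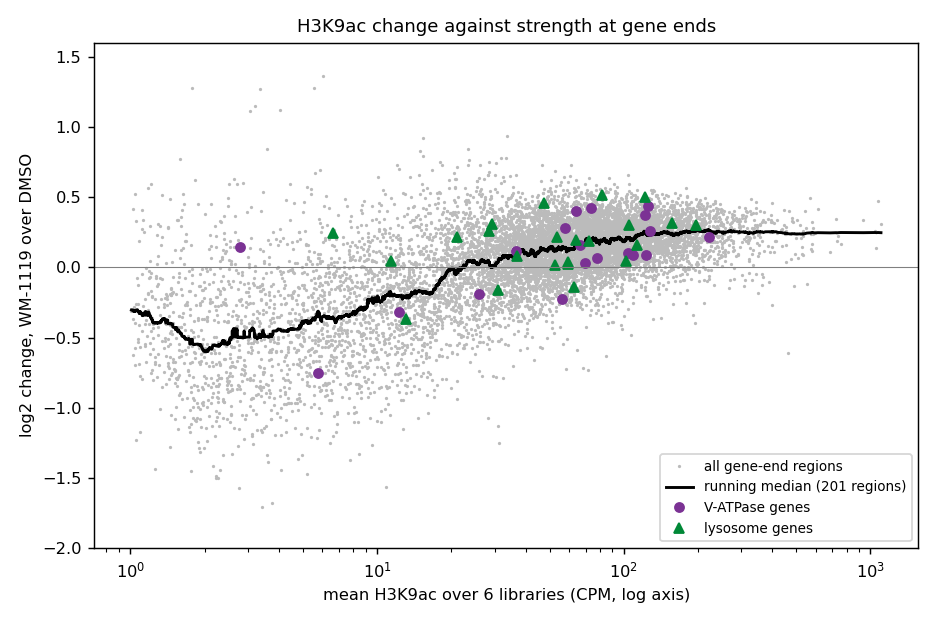
Log2 change in CPM + 1, WM-1119 over DMSO, against the mean CPM of the region (log axis), for all gene-end regions and for the 42 lysosome and V-ATPase genes. The median of gene ends lies below 0 at weak regions and above 0 at strong ones, and at 100 CPM or more it is 0.24, against 0.26 for these genes.

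When each library was centred on the 200 gene-end regions nearest in level, the median log2 change of the 42 genes was 0.02, with 24 of 42 above 0, and the median of all gene ends was 0.01. The 19 V-ATPase genes had a median of -0.03 and the 23 listed genes one of 0.05. By role it was 0.14 for V0 and -0.06 for V1. The median deviation of the 42 genes from gene ends of like level was 0.08, -0.03 and -0.02 in WM-1119 replicates 1 to 3, against 0.04, -0.06 and -0.05 in DMSO replicates 1 to 3. Replicate 1 had the highest median in each group, and the groups overlapped. No gene passed the limma threshold on this scale, where the smallest adjusted p was 0.648.

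**Figure D5:**
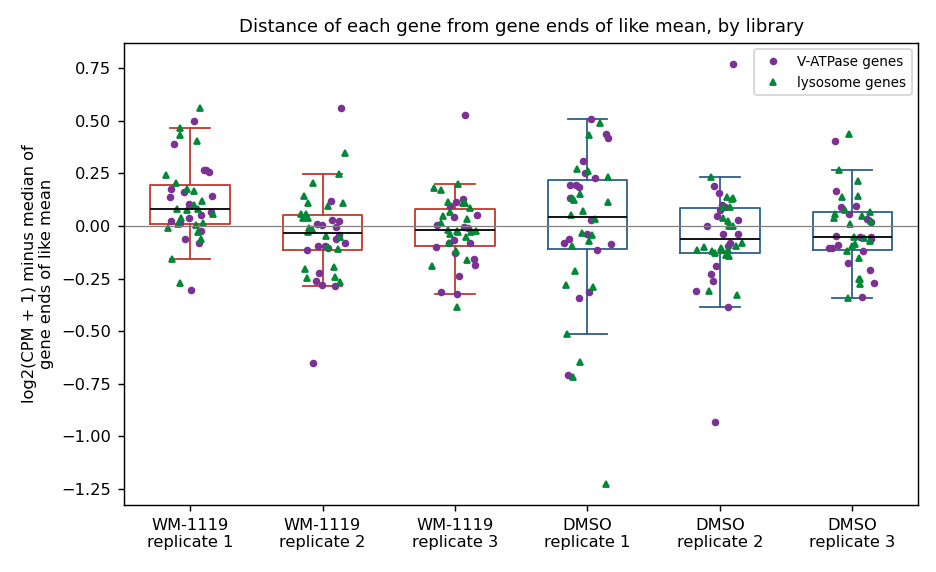
Deviation of each gene's log2(CPM + 1) from the median of the 200 gene-end regions nearest in mean level, per library, with WM-1119 libraries left of DMSO libraries. Library medians lie between -0.06 and 0.08, and the groups overlap.

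The number of genes called rested on DMSO replicate 3, the deepest DMSO library. Without it limma called 14 of the 42 genes, 13 higher and ATP6V0E2 lower, with adjusted p-values of 0.00577 to 0.0462. With both directions together that is 33.3%, against 28.0% of gene ends of like level. Of all 44763 tested regions, limma then called 2409 higher and 17228 lower (38.5%). With DMSO replicate 3 as the only DMSO library, limma called 0, the median log2 change was 0.09, against 0.03 for gene ends of like level, and 30 of 42 genes were above 0. The regions of the 42 genes summed to 3370, 3097 and 3172 CPM in WM-1119 replicates 1 to 3, against 2703, 2645 and 3052 CPM in DMSO replicates 1 to 3. DMSO replicates 1 and 2, the shallow libraries with the largest share of CPM in weak regions, had the lowest sums, and the part of that share in the changes was not tested.

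The 5 genes on chromosome 8, of which MOLM-13 is known to carry an extra copy, had the 5 highest levels per kb of the 42. They were CTSB with 95.4, ATP6V1H with 88.2, ASAH1 with 52.8, ATP6V1C1 with 51.7 and ATP6V1B2 with 46.7 CPM per kb. The median of gene-end regions was 52.6 CPM per kb on chromosome 8, against 25.3 CPM per kb on the other chromosomes. Among chromosome 8 gene ends CTSB stood at percentile 92.4 and ATP6V1H at 89.7, ASAH1 stood at the middle, and ATP6V1C1 (47.3) and ATP6V1B2 (41.0) stood just under it. The part of copy number in these levels was not tested. The median log2 change was 0.21 for the 5 genes and 0.16 for the other 37. Among the pooled gene ends like the 42 genes in level, the 265 entries on chromosome 8 had a median of 0.06, and no difference was tested. Centring on gene ends of like level took no account of the chromosome.

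Regions inside the genes, away from both ends, mostly had log2 changes below 0 in the main fit. There were 84 such regions in 30 of the genes, of which 79 were tested and 10 had a mean of 10 CPM or more. The log2 change was below 0 in 73 of 79, with a median of -0.65, against -0.63 for all 20196 tested regions inside genes. None passed the limma threshold; the unadjusted p was under 0.05 in 10 lower and 0 higher regions, and 10 (12.7%) had WM-1119 libraries wholly below, against 15.8% of all regions inside genes. Without DMSO replicate 3, limma called 42 of them lower (53.2%), against 49.0% of all regions inside genes and 38.5% of all tested regions. Against DMSO replicate 3 alone the median log2 change of the 79 regions was 0.10. The median of the 79 was 0.12 with median centring and -0.03 with quantile normalization. TFEB held 12 such regions. The strongest, chr6:41705452-41707089, had 18.3, 23.5 and 22.2 CPM with WM-1119, against 27.8, 35.4 and 21.1 CPM with DMSO. A weaker one at chr6:41712624-41713742 had 8.15, 7.30 and 6.22 CPM with WM-1119, against 32.0, 18.5 and 5.48 CPM with DMSO. In both, DMSO replicate 3 was below the WM-1119 libraries or among them, and DMSO replicates 1 and 2 were above them. ATP6V0A4, which has no region at its ends, held one at chr7:138772036-138772232 with 0.881, 0.10 and 0.079 CPM with WM-1119, against 5.56, 8.47 and 0.267 CPM with DMSO.

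A further 85 lysosome genes (membrane proteins, glycosidases, sulfatases, lipid enzymes, sorting receptors, nutrient-sensing and pump assembly factors) gave a like picture. Of these 80 had a gene-end region, 61 had a log2 change above 0 (76.3%), and the median was 0.16; gene ends of like level to these 80 had 69.2% above 0 and a median of 0.12. None passed the limma threshold (adjusted p 0.292 to 0.994); 9 higher genes (11.3%) and 1 lower gene (1.25%) had an unadjusted p under 0.05, against 7.74% and 1.58% of those gene ends. MANBA, the lysosomal beta-mannosidase, had 109, 101.1 and 90.8 CPM with WM-1119, against 63.9, 60.8 and 78.7 CPM with DMSO. Its groups were separate, with a log2 change of 0.56 ± 0.17 (SE, adjusted p of 0.292 by limma), and with the replicate block it passed (limma adjusted p 0.0386). HGSNAT, an acetyltransferase of heparan sulfate breakdown, had 229, 206 and 216 CPM with WM-1119, against 143, 158 and 189 CPM with DMSO. LAPTM5, a lysosomal membrane protein of blood cells, had 65.4, 61.7 and 53.4 CPM with WM-1119, against 38.9, 47.0 and 37.8 CPM with DMSO. All 3 WM-1119 libraries were above all DMSO libraries in both genes.

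The genes of that list with the smallest p among those with lower values were CTSW, LGMN and CTSF. CTSW, a cathepsin of cytotoxic lymphocytes, had 1.32, 1.40 and 0.472 CPM with WM-1119, against 6.95, 4.62 and 1.604 CPM with DMSO, with a log2 change of -1.28 ± 0.58 (SE, adjusted p of 0.356 by limma). The log2 change was -0.84 for LGMN, the asparaginyl protease legumain, and -0.59 for CTSF, cathepsin F, neither past the threshold. TCIRG1, which encodes the a3 subunit of V0 under another symbol, had 78.4, 89.9 and 87.1 CPM with WM-1119, against 63.9, 65.5 and 66.6 CPM with DMSO. Its WM-1119 libraries were wholly above, as for 5 of the 7 V0 genes and for 17 of the 80 genes of that list (21.25%). The limma adjusted p of TCIRG1 was 0.364.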

How the data were processed

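The 3 WM-1119 and 3 DMSO libraries of H3K9ac were grouped and numbered by their titles. The authors' table is named TPM, but the deposited values are CPM, reads divided by the library's sum over the listed regions, per the file headers and values: below 100 reads, 100% of values in 5 libraries fell within 0.02 of a whole read, and WM-1119 replicate 2, whose step is close to a round value, took no part in count tests. Per the submitters' processing notes, the tools were Bowtie2, MACS2, bedtools and SAMtools on hg38; their roles and the merging of regions are not given in the sources used.

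In R 4.3.3, limma 3.58.1 (lmFit and eBayes, trend and robust on) modelled log2(CPM + 1) by treatment alone in the 44763 regions averaging 1 CPM or more, with two-sided p-values adjusted over all of them by Benjamini and Hochberg. Log2 changes on this scale understate the change of weak regions. Genes were placed with RefSeq GRCh38.p14, and 1 was added to each start, counted from 0 in the table. The genes and lists were chosen with earlier results of these data known. Named in full were 16 genes of interest, the highest and lowest of each role, and the 4 with the smallest p per direction; others named were chosen after their values were seen. A cell type marker is not reported here. Alternatives were pseudocounts of 0.1 and 5, no filter, a mean of at least 10 CPM, 3 other scalings, leaving out libraries, a replicate block, and edgeR 4.0.16 (TMM, quasi-likelihood) on recovered reads of 5 libraries. Deviations of same-numbered libraries from their group means correlated at 0.461, 0.172 and 0.527 over regions averaging 10 CPM or more. For libraries of unlike number the values ran from -0.473 to 0.0663. The labels state no pairing, and the main fit used none. Only the replicate block paired the libraries by number. On simulated data with 200 changed regions of 10 CPM or more the fit recovered most changes of 4-fold but few of 2-fold. The simulated regions shared a single dispersion, and unchanged regions had the same mean in every library. They thus lacked the larger weak-region share of DMSO replicates 1 and 2, so recovery in these data may differ. The fitted difference of each of the 42 genes was under 2-fold. Python 3.11.15 with matplotlib 3.10.9, numpy 2.4.6 and pandas 2.3.3 made the other tables and the figures.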

Additional observations from a re-analysis of the deposited data

How the results depend on the processing

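Single log2 changes were repeated under other settings for the 26 genes named in full that had a region, not for all 42. Of these 413 repeats, 361 kept direction and side of the threshold, 12 passed it newly and 40 changed sign. Over all regions 27 were called by limma; 2 were called at a mean of at least 10 CPM, 1 with quantile normalization, 2 with median centring, 0 with centring on gene ends of like level and 0 by edgeR, where 350 higher and 1773 lower regions had an unadjusted p under 0.05. Leaving out single libraries gave 0 to 19637 calls over all regions, 0 to 14 of the 42 genes, 0 to 42 regions inside them and 0 to 22 of the further lysosome genes, the highest each time without DMSO replicate 3. The replicate block gave 496 calls over all regions (112 higher, 384 lower), 1 of the 42 genes (CTSZ) and 1 further lysosome gene (MANBA), and it changed no other call of these genes. The median log2 change of the 42 genes was 0.93 with median centring, 0.023 with centring on gene ends of like level and 0.53 in edgeR; median centring moved all regions by 0.77 and quantile normalization by 0.48. Depth limited the weakest regions: 3 reads were worth 4.17 CPM in DMSO replicate 1, at or near the levels of ATP6V1B1, ATP6V0E2 and CTSW there.

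Signs of the 26 genes named in full changed as follows, and the cause was not tested. With median centring the log2 change was 0.017 for ATP6V0E2, 0.45 for ATP6V1C2, 0.54 for ATP6V1G2, 0.61 for CD68 and 0.40 for LIPA. With quantile normalization it was -0.11 for ATP6V1B2, 0.12 for ATP6V1C2, -0.0044 for ATP6V1H, -0.035 for CD63, -0.078 for CTSD, -0.13 for LAMP1, 0.096 for LIPA and -0.098 for MCOLN1. With centring on gene ends of like level it was -0.14 for ATP6V1B2, -0.034 for ATP6V1H, -0.044 for CD63, -0.088 for CTSD, -0.16 for LAMP1 and -0.092 for MCOLN1. Without DMSO replicates 1 and 2, with the lone DMSO library assumed to vary like the WM-1119 libraries, it was -0.011 for ATP6V1A, 0.44 for ATP6V1C2, 0.29 for CD68, -0.064 for CTSD, -0.22 for LAMP1 and 0.052 for LIPA. In edgeR it was 0.32 for ATP6V1C2 and 0.21 for each of ATP6V1G2, CD68 and LIPA. Leaving out single libraries gave -0.085 to 0.43 for ATP6V1B1, -0.70 to 0.0082 for ATP6V1C2, -0.39 to 0.023 for CD68, -0.075 to 0.10 for CTSD, -0.026 to 0.18 for LAMP1 and -0.077 to 0.20 for MCOLN1.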
